A study of Mus musculus with 10 samples.

Results

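The 10 tumors of a single mouse lung cancer line, grown in the flanks of obese mice, were divided by their content of Ptprc RNA, the transcript of the leukocyte common antigen CD45. Tumors with a Ptprc level above 55 on the counts-per-million (CPM) scale of total counts were called rich, and the others poor. The rule put 5 of the 10 tumors in the rich class (vehicle tumors 4 and 5, liraglutide tumors 3, 4 and 5) and the other 5 in the poor class (vehicle tumors 1, 2 and 3, liraglutide tumors 1 and 2). The line, KPN1.1, is a lung adenocarcinoma line that carries NINJA, an inducible neoantigen allele, beside its engineered driver alleles, and all 10 tumors share these alleles. In each mouse 75000 cells were injected under the skin. All hosts were male C57BL/6J mice made obese with a diet in which 60% of the calories came from fat, and they were between 7 and 17 weeks old at injection. Once tumors could be felt, 5 of the mice whose tumors were sequenced received liraglutide, a glucagon-like peptide-1 receptor agonist, at 0.2 μg per gram of body weight daily into the peritoneum, and 5 received the PBS vehicle. Tumors were taken between days 19 and 22, and RNA came from a frozen fragment that held tumor cells and host cells together. The line is a single line implanted at a site that is not the lung, which limits it as a model of lung cancer. The hosts were not immunodeficient.

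CD45 is a phosphatase on the surface of almost every white blood cell and acts in antigen receptor signaling, so its transcript is commonly used to follow the leukocyte content of a tissue. Activated T cells and natural killer cells secrete interferon-gamma. In tumor and host cells alike, this cytokine induces the machinery of MHC class I presentation, MHC class II genes through the coactivator CIITA, and the chemokines CXCL9 and CXCL10, which attract further T cells. In lung adenocarcinoma, the transcription factor NKX2-1 marks cells that keep lung identity, and HMGA2 marks cells that have lost it.

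The rule used measured values of these same libraries. Ptprc lay at 35.6, 30.1, 39.3, 37.4 and 42.5 CPM of total counts in the poor tumors and at 78.1, 68.5, 71.0, 76.6 and 74.1 CPM of total counts in the rich tumors. Here and in every list of values that follows, poor tumors are given in the order vehicle 1, 2, 3 and liraglutide 1, 2, and rich tumors in the order vehicle 4, 5 and liraglutide 3, 4, 5. The nearest tumors on the opposite sides of the limit were liraglutide tumor 2, at 42.5, and vehicle tumor 5, at 68.5, so no tumor lay close to it. The Ptprc gene spans chr1:137990599-138103446 on the minus strand of GRCm39. Because the classes were chosen by Ptprc and other genes of leukocytes move with it, every difference between the classes given here is a description of how far a gene moves with Ptprc, with no p-value. In bulk tumor RNA, more cells of a type and more RNA per cell cannot be told apart.

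Total counts per tumor ranged from 9927942 to 14480593. CPM values from here on use total counts scaled by the TMM method, whose factors lay between 0.951 and 1.05, and a level of 3 counts lay between 0.207 and 0.315 CPM, depending on the tumor. Of 17463 genes tested besides Ptprc, 14.4% passed the threshold (an adjusted p under 0.05 by Benjamini-Hochberg together with a log2 difference beyond 0.58 either way, in edgeR's quasi-likelihood fit with treatment as covariate), 8.49% as higher (1483 genes) and 5.89% as lower (1029 genes) in the rich tumors. The classes did not overlap in CPM for 14.2% of genes (2477 genes), and 1554 genes met both conditions. The median log2 difference over all tested genes was -0.01. These shares are the background for every count of list members from the fit with all tumors. Since Ptprc chose the classes on the same contrast, nothing is read from the counts themselves. A pair of features of single libraries touch the results. Vehicle tumor 5 lay far from the others on the second principal component, and without it 1891 genes passed the threshold, 10.83% of those tested. Vehicle tumors 1 and 2 and liraglutide tumor 2, all poor, shared medians over whole chromosomes that set them apart from the other 7 tumors. Without these 3 tumors, vehicle tumor 3 and liraglutide tumor 1 are left as the poor class. Then 244 genes passed, 1.4% of those tested, 187 higher and 57 lower. All 2512 genes that passed with the 10 tumors kept their direction. This 1.4% is the background for every list count without these 3 tumors, so a loss of calls there is not particular to a list.

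**Figure D1:**
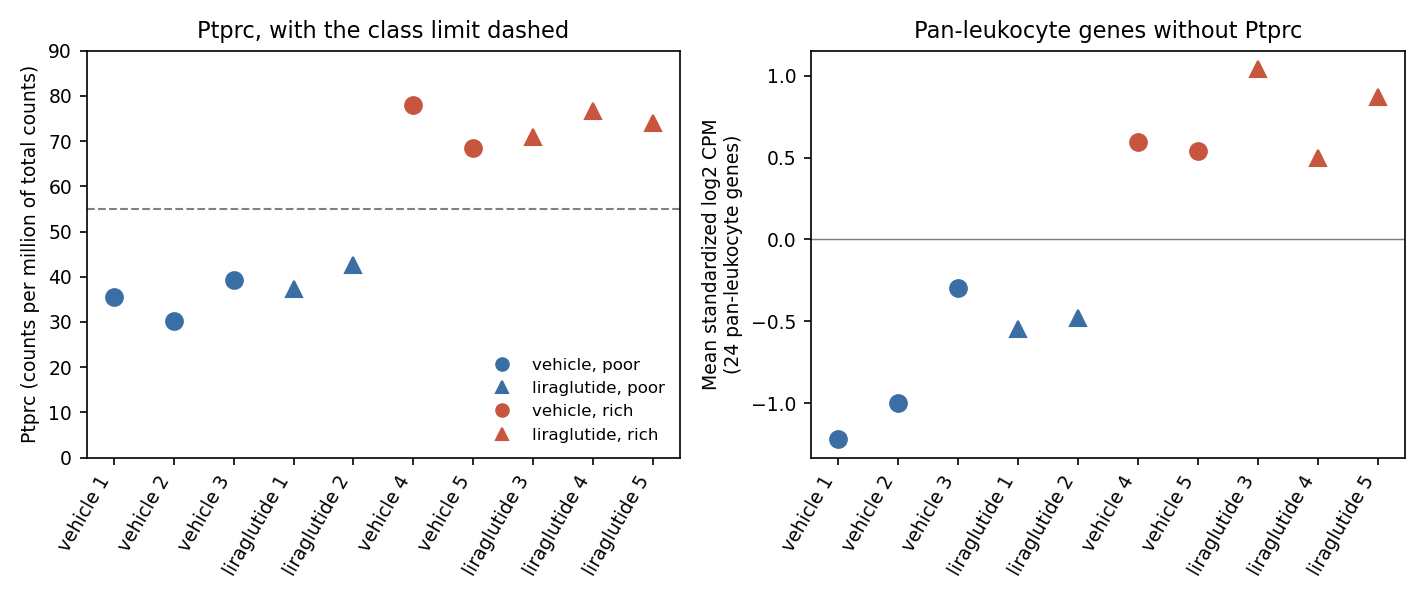
Ptprc in CPM of total counts (left, class limit of 55 dashed) and the mean standardized log2 CPM of 24 pan-leukocyte genes without Ptprc (right), 1 point per tumor, circles for vehicle and triangles for liraglutide, blue for poor and red for rich. The rich tumors lie between 68.5 and 78.1 and the poor tumors between 30.1 and 42.5, and the pan-leukocyte score, which did not use Ptprc, is below 0 in all poor and above 0 in all rich tumors.

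The main axis of variance between the tumors ran along the classes. The first principal component of log2 CPM, computed without Ptprc, held 48.7% of the variance, the second 10.96% and the third 9.45%. Scores on the first were -69.3, -67.2, -32.4, -4.35 and -28.1 in the poor tumors and 38.5, 39.3, 49.7, 24.2 and 49.6 in the rich tumors. The classes did not overlap, and liraglutide tumor 1 was the poor tumor nearest to the rich ones. On the second component vehicle tumor 5 had a score of -54.6, with the other 9 tumors between -18.5 and 21.4.

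**Figure D2:**
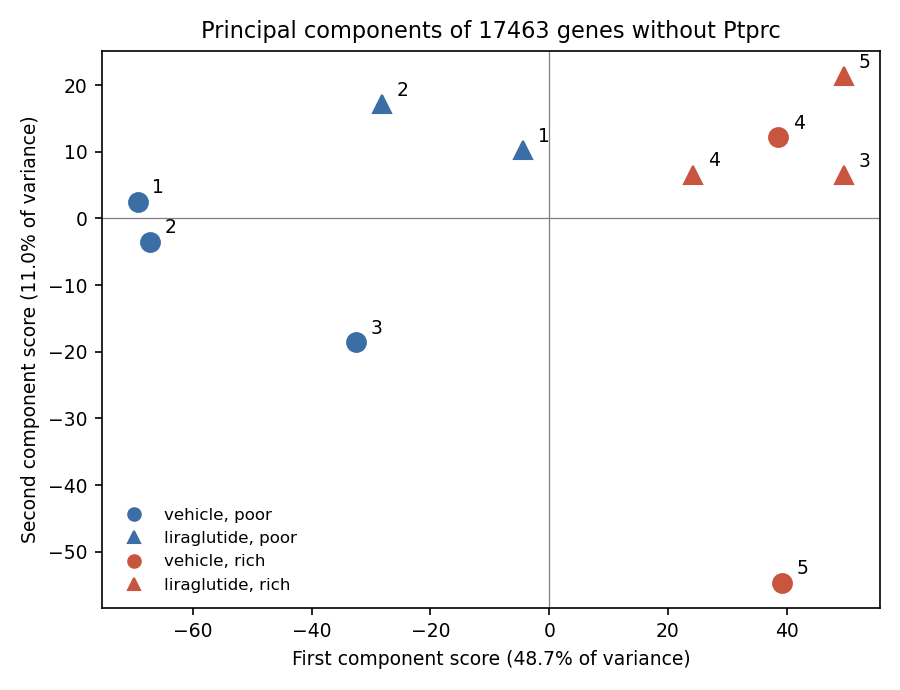
Scores of the 10 tumors on the first (x) and second (y) principal component of log2 CPM over 17463 genes without Ptprc, circles for vehicle and triangles for liraglutide, blue for poor and red for rich, numbers giving the tumor. Poor tumors lie at or below -4.35 and rich tumors at or above 24.2 on the first component, and vehicle tumor 5 lies alone at -54.6 on the second.

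At the rich end of the first component, the 10 largest weights belonged to Xist, Gkn2, Gng4, Cxcl15, Slc26a9, Orm1, Adh7, Col4a3, Fmo4 and Sftpc. At the poor end they belonged to Scg2, Bmp7, Pthlh, Tmprss11b, Ndst3, Greb1, Cfap92, Gm47015, Tmprss11e and Gm42510. None of the 20 genes is a general leukocyte gene. Scg2, a granin of secretory vesicles, was at 497, 628, 91.5, 22.1 and 396 CPM in the poor tumors and at 2.76, 1.39, 1.06, 10.8 and 2.605 CPM in the rich tumors (log2 difference -6.41, SE 1.01, n = 5 poor and 5 rich tumors, as in every comparison of the classes with all tumors). Bmp7, a ligand of the bone morphogenetic protein family, was at 196, 200.2, 48.3, 24.2 and 57.5 CPM in the poor tumors and at 2.59, 1.22, 0.834, 5.95 and 1.56 CPM in the rich tumors (log2 difference -5.03, SE 0.6987). Pthlh, the parathyroid hormone-like hormone that tumors can release, was at 31.9, 41.4, 9.77, 3.46 and 14.1 CPM in the poor tumors and at 0.502, 1.14, 0.303, 2.27 and 1.04 CPM in the rich tumors (log2 difference -3.91, SE 0.69). For all 3 genes the classes did not overlap, vehicle tumors 1 and 2 were the highest of all tumors, and liraglutide tumor 4 was the highest rich tumor. Ndst3, an enzyme of heparan sulfate synthesis, ranged from 17.9 to 176 CPM in the poor tumors and from 3.42 to 12 CPM in the rich tumors, and Tmprss11b, a membrane serine protease, from 1.99 to 50.99 CPM in the poor tumors and from 0.447 to 1.93 CPM in the rich tumors. Gkn2, a gastrokine of gastric surface cells that is also expressed in the lung, was at 0.829, 0.608, 0.42, 1.296 and 4.73 CPM in the poor tumors and at 12.1, 60.3, 2.35, 5.86 and 79.4 CPM in the rich tumors (log2 difference 4.33, SE 1.01). Adh7, an alcohol dehydrogenase, was at 0.622, 1.22, 1.26, 1.901 and 1.14 CPM in the poor tumors and at 43.01, 25.1, 5.84, 3.68 and 8.86 CPM in the rich tumors (log2 difference 3.65, SE 0.55). Gkn2 was highest in vehicle tumor 5 and liraglutide tumor 5, Adh7 in the 2 rich vehicle tumors, so the genes of this end did not have 1 order among the rich tumors. Cxcl15 ranged from 0.203 to 13.8 CPM in the poor tumors and from 1.303 to 20.9 CPM in the rich tumors and Slc26a9, a chloride transporter, from 0.345 to 8.16 CPM in the poor tumors and from 5.702 to 40.1 CPM in the rich tumors, both with overlap. Xist, the long noncoding RNA that silences an X chromosome, was at 1.52, 0.101, 0.735, 1.12 and 2.94 CPM in the poor tumors and at 986, 34.9, 20.2, 78.5 and 712 CPM in the rich tumors (log2 difference 8.09, SE 1.33), with no overlap and a spread over the rich tumors from 20.2 to 986 CPM.

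The pan-leukocyte list without Ptprc had 14 of 24 tested members higher in the rich tumors past the threshold, 0 lower and 10 neither, with a median log2 difference of 0.63, and all 24 tested members had a positive difference. Its score, the mean over the members of log2 CPM standardized over the 10 tumors, was -1.22, -0.9971, -0.2987, -0.54 and -0.48 in the poor tumors and 0.59, 0.54, 1.04, 0.4959 and 0.87 in the rich tumors. Classes drawn at the median of this list held the same tumors as the classes drawn by Ptprc. Dock2, which drives migration of lymphocytes, was at 9.88, 11.7, 15.8, 15.03 and 19.9 CPM in the poor tumors and at 28.1, 31.4, 37.6, 25.3 and 30.8 CPM in the rich tumors (log2 difference 1.05, SE 0.17). Cd52, a glycoprotein of lymphocytes and monocytes, was at 4.28, 5.07, 6.51, 5.44 and 6.45 CPM in the poor tumors and at 14.6, 12.4, 12.3, 7.27 and 10.6 CPM in the rich tumors (log2 difference 1.06, SE 0.2021). Both were higher in every rich tumor than in any poor one. Of the defining members, Laptm5, a lysosomal membrane protein of hematopoietic cells, ranged from 17.4 to 32.6 CPM in the poor tumors and from 32.6 to 46.2 CPM in the rich tumors (log2 difference 0.65, SE 0.17). Coro1a, an actin regulator of leukocytes, (log2 difference 0.56, SE 0.19) and the tetraspanin Cd53 (log2 difference 0.25, SE 0.22) did not pass. Cd53 was highest in vehicle tumor 4 and liraglutide tumor 4 but within the poor range in the other 3 rich tumors, from 22.9 to 35.6 CPM in the poor tumors and from 24.9 to 49.5 CPM in the rich tumors. Ptprcap had no count in any tumor, which allows a level of up to 0.315 CPM by the value of 3 counts, for counting error alone. Without vehicle tumors 1 and 2 and liraglutide tumor 2, 1 of the 24 genes passed and the median was 0.51.

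The T cell list had 15 of 26 tested members higher in the rich tumors past the threshold, 1 lower and 10 neither, with a median log2 difference of 1.18. Cd3e, a chain of the T cell receptor complex, was at 0.345, 0.608, 0.42, 1.12 and 1.63 CPM in the poor tumors and at 2.51, 3.01, 4.47, 4.25 and 3.57 CPM in the rich tumors (log2 difference 2.01, SE 0.27). Cd8a, the coreceptor of cytotoxic T cells, was at 0.7599, 1.62, 1.78, 1.21 and 5.06 CPM in the poor tumors and at 4.35, 8.63, 10.2, 6.14 and 8.41 CPM in the rich tumors (log2 difference 1.79, SE 0.3973). Cd3e did not overlap, while Cd8a overlapped because liraglutide tumor 2 was above vehicle tumor 4. Cd4, the coreceptor of helper T cells, ranged from 1.32 to 1.93 CPM in the poor tumors and from 1.7 to 4.25 CPM in the rich tumors (log2 difference 0.82, SE 0.29). Foxp3, the factor of regulatory T cells, ranged from 1.73 to 2.94 CPM in the poor tumors and from 1.71 to 2.76 CPM in the rich tumors (log2 difference 0.11, SE 0.24), and neither passed. Among the members with the largest differences was Ubash3a, a suppressor of T cell receptor signaling. It ranged from 0.0691 to 0.735 CPM in the poor tumors and from 0.9204 to 1.96 CPM in the rich tumors (log2 difference 2.38, SE 0.4978), where the lowest values stand on 1 to 3 counts. The single lower member past the threshold was Tcf7, a factor of naive and memory T cells that other tissues also express (log2 difference -1.22, SE 0.21). Without the 3 tumors that share chromosome medians, 3 of 26 T cell genes passed, with a median of 0.94. The count filter did not ask for counts in every tumor. Members as low as Ubash3a, here and in the other lists, could thus enter through the rich tumors alone, where they were high. Such members raise the count and the median of a list, and their calls support nothing. A filter of 10 or more counts in each tumor gave a T cell median of 0.13.

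The list of natural killer cell and cytotoxic genes had 6 of 13 tested members higher in the rich tumors past the threshold, 1 lower and 6 neither, with a median log2 difference of 1.25, and the median was 0.85 with the same filter. Without the 3 tumors that share chromosome medians 2 passed as higher and 0 as lower, with a median of 1.51. The summed level of all listed genes, tested or not, ran the other way, from 109 to 232 CPM in the poor tumors and from 86.3 to 124 CPM in the rich tumors. Klra4, a Ly49 receptor and the member with the highest level, was at 83.4 to 216 CPM in the poor tumors and at 28.3 to 76.1 CPM in the rich tumors, and the other 12 tested members summed to 14.8 to 35.4 CPM in the poor and 34.98 to 53.2 CPM in the rich tumors. Nkg7, a granule protein of cytotoxic cells, was at 0.276, 0.406, 0.735, 0.518 and 1.22 CPM in the poor tumors and at 2.01, 2.85, 2.199, 1.42 and 2.83 CPM in the rich tumors (log2 difference 1.81, SE 0.38). Prf1, which encodes perforin, was at 0.7599, 0.608, 0.735, 0.777 and 2.61 CPM in the poor tumors and at 2.18, 3.75, 4.62, 4.06 and 2.903 CPM in the rich tumors (log2 difference 1.58, SE 0.35). Klrd1, a natural killer cell receptor chain, ranged from 0.345 to 1.22 CPM in the poor tumors and from 2.199 to 3.77 CPM in the rich tumors (log2 difference 1.83, SE 0.33). Nkg7 and Klrd1 did not overlap, and Prf1 did, with liraglutide tumor 2 above vehicle tumor 4. Gzmb, granzyme B, ranged from 0.811 to 4.84 CPM in the poor tumors and from 2.34 to 8.96 CPM in the rich tumors (log2 difference 1.12, SE 0.41) and did not pass, and the natural killer cell receptors Ncr1 and Klrb1c were below the count filter. Ncr1 was at most 0.484 CPM in the poor tumors and between 0.669 and 1.55 CPM in the rich tumors. Klra4 was the single lower member past the threshold (log2 difference -1.301, SE 0.22), and which cells made its RNA was not tested. The list's score in the poor tumors was above 0 only in liraglutide tumor 2, at 0.35.

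B cell transcripts were scarce. Of 24 listed B cell and plasma cell genes 8 passed the count filter, with 3 of 8 tested members higher in the rich tumors past the threshold, 0 lower and 5 neither, with a median log2 difference of 0.71. The defining genes Ms4a1, Cd79a and Jchain were below the filter, with Ms4a1 at most 0.814 CPM in any tumor. Ighm, the heavy chain of IgM, was at 1.17, 1.42, 3.57, 1.55 and 2.12 CPM in the poor tumors and at 4.35, 4.56, 12.9, 6.42 and 5.66 CPM in the rich tumors (log2 difference 1.66, SE 0.38), without overlap and highest in liraglutide tumor 3. Cd22, an inhibitory receptor of B cells, ranged from 0.608 to 1.81 CPM in the poor tumors and from 1.86 to 4.55 CPM in the rich tumors (log2 difference 1.19, SE 0.36). In edgeR's fit 0 of the 8 genes passed when the 3 tumors that share chromosome medians were left out, with a median of 0.63. Jchain, which joins secreted immunoglobulin, reached 2.20 CPM in liraglutide tumor 3 and at most 0.472 CPM in the other 9 tumors.

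The macrophage and monocyte list had 14 of 29 tested members higher in the rich tumors past the threshold, 1 lower and 14 neither, with a median log2 difference of 0.59. Without vehicle tumor 4 or without liraglutide tumor 2, 9 passed as higher, and 3 did without the 3 tumors that share chromosome medians, with a median of 0.41. Clec12a, an inhibitory lectin of myeloid cells, was at 1.24, 1.11, 2.31, 2.16 and 1.47 CPM in the poor tumors and at 6.86, 7.98, 6.97, 5.01 and 7.29 CPM in the rich tumors (log2 difference 2.05, SE 0.25). Cybb, the catalytic subunit of the phagocyte oxidase, was at 18.1, 16.9, 37.1, 54.1 and 36.5 CPM in the poor tumors and at 90.2, 93.5, 85.98, 82.9 and 85.7 CPM in the rich tumors (log2 difference 1.42, SE 0.25). Neither overlapped. Adgre1, which encodes F4/80, ranged from 10.5 to 19.9 CPM in the poor tumors and from 15.7 to 30.8 CPM in the rich tumors (log2 difference 0.73, SE 0.23). The complement chain C1qa ranged from 27.4 to 39.4 CPM in the poor tumors and from 40.4 to 61.8 CPM in the rich tumors (log2 difference 0.57, SE 0.14) without overlap and lay just under the limit of 0.58, and Csf1r, the receptor on which macrophages depend, from 31.02 to 48.2 CPM in the poor tumors and from 42.4 to 70.8 CPM in the rich tumors (log2 difference 0.43, SE 0.15) with overlap.

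Mrc1, the mannose receptor CD206 of alternatively activated macrophages, went the other way. It was at 673, 724, 761, 339.8 and 457 CPM in the poor tumors and at 312, 218, 284, 339 and 190.4 CPM in the rich tumors (log2 difference -0.9994, SE 0.22). The 3 poor vehicle tumors were the highest, and the lowest poor tumor (liraglutide 1, 339.8) was nearly equal to the highest rich one (liraglutide 4, 339). Mrc1 was the only macrophage list member past the threshold as lower, with classes just apart. Its mean in the poor tumors was 591 CPM, against 38.4 for Csf1r, 32.05 for C1qa and 13.8 for Adgre1. Which cells made the Mrc1 RNA was not tested, so its direction is not read as a number of macrophages. The inflammatory monocyte gene Ly6c2 was below the filter.

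The dendritic cell list had 7 of 16 tested members higher in the rich tumors past the threshold, 1 lower and 8 neither, with a median log2 difference of 0.38. Without the 3 tumors that share chromosome medians, 0 of the 16 passed in edgeR's quasi-likelihood fit, with a median of 0.51. Clec9a, the receptor for dead cells on cross-presenting dendritic cells, was at 1.17, 1.52, 1.47, 1.81 and 3.18 CPM in the poor tumors and at 6.95, 10.8, 5.76, 3.31 and 5.21 CPM in the rich tumors (log2 difference 1.79, SE 0.35). Xcr1, a chemokine receptor of the same cells, was at 0.484, 0.811, 0.63, 0.777 and 1.55 CPM in the poor tumors and at 4.69, 7.17, 4.47, 1.42 and 3.35 CPM in the rich tumors (log2 difference 2.299, SE 0.43). Both were lowest among the rich tumors in liraglutide tumor 4, where Xcr1 lay within the range of the poor tumors. Flt3, a growth factor receptor of dendritic cells, ranged from 1.01 to 2.14 CPM in the poor tumors and from 1.89 to 4.56 CPM in the rich tumors (log2 difference 1.01, SE 0.29), and the integrin Itgax from 12.7 to 28.4 CPM in the poor tumors and from 28.8 to 40.6 CPM in the rich tumors (log2 difference 0.84, SE 0.18). Fscn1, which marks mature dendritic cells but is an actin-bundling protein of many other cells, was the lower member (log2 difference -1.499, SE 0.31). Siglech, of plasmacytoid dendritic cells, was below the filter, at most 0.606 CPM.

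Of 20 listed neutrophil genes 10 were tested, with 1 of 10 tested members higher in the rich tumors past the threshold, 2 lower and 7 neither, with a median log2 difference of -0.05. The median was -0.88 when every gene with a count was kept. The summed level of the 20 listed genes ranged from 65.8 to 82.9 CPM in the poor tumors and from 30.4 to 49.8 CPM in the rich tumors, without overlap. Mmp9 had the highest level of the tested members, and the other 9 summed to 16.4 to 27.3 CPM in the poor and 13.5 to 26.5 CPM in the rich tumors. Without vehicle tumor 5 or liraglutide tumor 2 the list had 0 higher and 1 lower, and the median was between 0.06 and 0.12 without vehicle tumor 3, liraglutide tumor 1 or liraglutide tumor 3. Ly6g had no count in any tumor. The calprotectin chains S100a8 (log2 difference -1.44, SE 0.59) and S100a9 (log2 difference -1.299, SE 0.66) did not pass, with values from 0.691 to 3.75 CPM in the poor tumors and from 0.379 to 2.31 CPM in the rich tumors for S100a8. Mmp9, a gelatinase that neutrophils, macrophages and tumor cells make, was at 59, 55.05, 48.5, 53.9 and 41.5 CPM in the poor tumors and at 17.9, 15.6, 16.8, 21.8 and 19.7 CPM in the rich tumors (log2 difference -1.49, SE 0.13). The lowest poor tumor was at 41.5 and the highest rich tumor at 21.8. Il1r2, a decoy receptor, was also lower (log2 difference -1.29, SE 0.3958), and Acod1, which makes itaconate, was higher (log2 difference 1.198, SE 0.31). The mast cell and basophil list had 1 of 8 tested members higher in the rich tumors past the threshold, 0 lower and 7 neither, with a median log2 difference of 0.71, and 6 of the 8 differences were positive. Its median was 0.37 without vehicle tumor 4, 3 members passed without liraglutide tumor 2, and none passed without the 3 tumors that share chromosome medians. Mcpt4, a mast cell chymase, was at 35.5, 20.99, 22.4, 80.2 and 55.5 CPM in the poor tumors and at 97.7, 65.1, 273, 75.3 and 117 CPM in the rich tumors (log2 difference 1.41, SE 0.32), highest in liraglutide tumor 3. Cpa3 ranged from 1.21 to 7.101 CPM in the poor tumors and from 3.91 to 16.2 CPM in the rich tumors and Tpsb2 from 0.864 to 4.41 CPM in the poor tumors and from 1.51 to 9.71 CPM in the rich tumors, highest in vehicle tumor 4, and neither passed.

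The interferon-stimulated list had 35 of 39 tested members higher in the rich tumors past the threshold, 0 lower and 4 neither, with a median log2 difference of 1.37, and the classes did not overlap for 28 of the 39. The score of the list was -1.703, -1.29, -0.5003, -0.13 and -0.02 in the poor tumors and 0.5042, 1.16, 0.56, 0.61 and 0.81 in the rich tumors. It was lowest in vehicle tumors 1 and 2 and highest in vehicle tumor 5, and liraglutide tumors 1 and 2 lay closest to the rich class. The difference between the class means of log2 CPM was 1.996 among vehicle and 0.75 among liraglutide tumors. Cxcl9 was at 21.4, 42.98, 63.5, 92.9 and 135 CPM in the poor tumors and at 173, 266, 201, 271 and 302 CPM in the rich tumors (log2 difference 1.77, SE 0.31). Cxcl10 was at 3.45, 4.05, 7.25, 12.9 and 16 CPM in the poor tumors and at 19.2, 50.1, 24.5, 44.9 and 37.7 CPM in the rich tumors (log2 difference 2.03, SE 0.37). In both the lowest rich tumor was vehicle tumor 4, and it lay above every poor tumor. Gbp4, a guanylate-binding protein, ranged from 10.02 to 140 CPM in the poor tumors and from 124 to 248 CPM in the rich tumors (log2 difference 1.92, SE 0.45), Irf7, a regulator of type I interferon, from 8.84 to 32.1 CPM in the poor tumors and from 33.7 to 69.8 CPM in the rich tumors (log2 difference 1.33, SE 0.2955), and Isg15, a ubiquitin-like protein, from 1.24 to 4.305 CPM in the poor tumors and from 5.76 to 12.5 CPM in the rich tumors (log2 difference 1.52, SE 0.31). Without vehicle tumor 5, 30 of the 39 genes passed with a median of 1.15, and without the 3 tumors that share chromosome medians 12 passed with a median of 1.08. Reads of the Gbp, Ifit and Oas families can be split between close paralogs, and the setting for such reads was not stated.

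Genes of antigen presentation on MHC class I were all higher in the rich tumors. The list of MHC class I and immunoproteasome genes had 16 of 16 tested members higher in the rich tumors past the threshold, 0 lower and 0 neither, with a median log2 difference of 1.54. B2m, the light chain of class I, was at 219.7, 307, 409.6, 559.5 and 804 CPM in the poor tumors and at 1115, 1342, 1073, 875 and 1048 CPM in the rich tumors (log2 difference 1.26, SE 0.27). The peptide transporter Tap1 was at 8.71, 16.4, 32.5, 42.2 and 75.3 CPM in the poor tumors and at 77.9, 156, 97.3, 89.9 and 109 CPM in the rich tumors (log2 difference 1.67, SE 0.42). H2-K1, a classical heavy chain, ranged from 168 to 532 CPM in the poor tumors and from 698 to 1382 CPM in the rich tumors (log2 difference 1.45, SE 0.29), and the nonclassical H2-Q7 from 7.18 to 58.2 CPM in the poor tumors and from 72.6 to 169 CPM in the rich tumors (log2 difference 2.09, SE 0.46) and H2-Q6 from 9.81 to 107 CPM in the poor tumors and from 136 to 305 CPM in the rich tumors (log2 difference 2.03, SE 0.4964), a pair whose sequences are nearly alike. None of the 5 overlapped. Vehicle tumor 1 was lowest in all 5 and vehicle tumor 5 highest. The list's class difference was 2.09 among vehicle and 0.78 among liraglutide tumors.

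The MHC class II genes, which present antigen to helper T cells, had 8 of 8 tested members higher in the rich tumors past the threshold, 0 lower and 0 neither, with a median log2 difference of 1.59. Ciita, the coactivator of the class, was at 10.6, 8.82, 18.6, 31.96 and 47.1 CPM in the poor tumors and at 62.3, 55.5, 102, 67.6 and 109 CPM in the rich tumors (log2 difference 1.71, SE 0.25). Cd74, the invariant chain, was at 121, 109, 183, 266 and 372 CPM in the poor tumors and at 552, 594, 964, 567 and 831 CPM in the rich tumors (log2 difference 1.68, SE 0.21). H2-Ab1, the beta chain of I-A, was at 38.5, 34.5, 56.4, 61.3 and 99.3 CPM in the poor tumors and at 152, 169, 227, 132 and 186 CPM in the rich tumors (log2 difference 1.53, SE 0.22). In all 3, liraglutide tumor 3 or 5 was highest rather than vehicle tumor 5, and liraglutide tumor 2 was the highest of the poor. The class difference of the list was 1.99 among vehicle and 1.22 among liraglutide tumors. Without the 3 tumors that share chromosome medians, 6 of the 8 genes and 9 of the 16 class I genes passed, with medians of 1.599 and 1.36.

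For the genes of the interferon list, the 250 bases before their start were searched for the core of the interferon-stimulated response element. The core is GAAA and GAAA with any 2 bases between them, sought on both strands, with overlapping matches allowed. RefSeq windows on GRCm38.p6 were found for 28 of the 39 tested genes of the list by symbol, and 16 of the 28 (57.1%) held the core, against 936 of 27025 genes of the table (3.46%), 2 of 14 matched class I genes, 0 of 5 class II genes, 0 of 16 T cell genes, 0 of 38 replication genes and 3 of 41 mitosis genes (7.32%). Such a match describes the letters of the window and is not a measured site. The list was made of genes known to respond to interferon, so its share follows from that choice and not from these tumors. Cxcl10, Isg15 and B2m are shown, 2 genes of the interferon list and 1 of the class I list whose values are given here, with the matched bases in capitals.
Cxcl10, minus strand, chr5:92348890-92349139: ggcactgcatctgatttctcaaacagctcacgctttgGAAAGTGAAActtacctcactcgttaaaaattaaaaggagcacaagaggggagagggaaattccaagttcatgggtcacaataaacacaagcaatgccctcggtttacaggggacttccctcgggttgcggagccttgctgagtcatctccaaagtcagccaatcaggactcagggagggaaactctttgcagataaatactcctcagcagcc
Isg15, minus strand, chr4:156200819-156201068: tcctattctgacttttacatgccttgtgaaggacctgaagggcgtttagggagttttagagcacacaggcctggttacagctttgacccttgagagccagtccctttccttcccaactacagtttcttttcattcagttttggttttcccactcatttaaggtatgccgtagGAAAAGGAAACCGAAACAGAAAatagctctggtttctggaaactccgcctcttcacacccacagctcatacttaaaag
B2m, plus strand, chr2:122147437-122147686: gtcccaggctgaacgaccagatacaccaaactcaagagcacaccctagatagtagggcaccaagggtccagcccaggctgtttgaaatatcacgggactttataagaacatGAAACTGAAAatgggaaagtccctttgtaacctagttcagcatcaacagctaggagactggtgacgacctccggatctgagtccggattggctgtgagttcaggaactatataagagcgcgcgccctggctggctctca
Isg15 held 3 overlapping matches that began 78, 72 and 66 bases before the start, Cxcl10 held 1 at 213 bases and B2m 1 at 139 bases.

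Checkpoint genes and chemokines differed gene by gene. The checkpoint list had 5 of 16 tested members higher in the rich tumors past the threshold, 0 lower and 11 neither, with a median log2 difference of 0.65. Cd274, which encodes PD-L1, was at 7.46, 11.3, 14.8, 22.2 and 24.4 CPM in the poor tumors and at 28.9, 42.4, 28.1, 33.7 and 31.04 CPM in the rich tumors (log2 difference 1.03, SE 0.26) without overlap. Its receptor Pdcd1 ranged from 0.414 to 2.04 CPM in the poor tumors and from 1.42 to 3.26 CPM in the rich tumors (log2 difference 0.81, SE 0.36) and did not pass, and neither did Lag3, from 1.04 to 2.53 CPM in the poor tumors and from 2.55 to 3.49 CPM in the rich tumors (log2 difference 0.63, SE 0.27), although its classes were just apart. Btla, an inhibitory receptor of lymphocytes, was higher (log2 difference 1.17, SE 0.34). Without vehicle tumor 5, 3 of the 16 checkpoint genes passed, and 1 without the 3 tumors that share chromosome medians. Cxcl9 and Cxcl10 were counted in the interferon list. The chemokine list, which does not hold them, had 3 of 24 tested members higher in the rich tumors past the threshold, 1 lower and 20 neither, with a median log2 difference of 0.03. That median was between -0.06 and -0.03 without vehicle tumor 1, liraglutide tumor 2 or liraglutide tumor 4, and the lower call was lost without vehicle tumor 5, liraglutide tumor 2 or liraglutide tumor 3. Cxcl16, the ligand of CXCR6, was at 13.3, 12.2, 13.5, 17.4 and 18.04 CPM in the poor tumors and at 28.3, 26.9, 25.3, 27.6 and 31.4 CPM in the rich tumors (log2 difference 0.87, SE 0.12), and Cxcl11 ranged from 1.42 to 3.92 CPM in the poor tumors and from 3.34 to 12.9 CPM in the rich tumors (log2 difference 1.81, SE 0.38). Ccl24, an eosinophil attractant, was lower (log2 difference -2.17, SE 0.6022), from 0.406 to 3.84 CPM in the poor tumors and from 0.0744 to 1.42 CPM in the rich tumors, levels of few counts. Ccl2, which attracts monocytes, ranged from 1.796 to 5.196 CPM over all tumors and Cxcl12 from 5.38 to 19.2 CPM, and neither passed.

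In the list of complement genes and lysosomal proteases, cathepsins went in both directions. The list had 3 of 20 tested members higher in the rich tumors past the threshold, 1 lower and 16 neither, with a median log2 difference of 0.3043, and the median was 0.1995 without liraglutide tumor 2. As higher, 5 passed without vehicle tumor 3 or 5, and 2 without vehicle tumor 1 or 4 or liraglutide tumor 1, 2 or 5. When the 3 tumors that share chromosome medians were left out, 1 passed and the median was 0.09. Ctss, the cathepsin that trims the invariant chain in antigen-presenting cells, was at 59.8, 64.6, 82.7, 75.9 and 92.7 CPM in the poor tumors and at 147, 129.5, 156, 138 and 143 CPM in the rich tumors (log2 difference 0.8979, SE 0.11). Ctsh, a cathepsin of macrophages and of type II lung cells, was at 114, 154, 164, 221 and 316 CPM in the poor tumors and at 822, 295, 855, 522 and 760.4 CPM in the rich tumors (log2 difference 1.68, SE 0.27). Ctsl, cathepsin L, was at 452, 488, 396, 267 and 369.6 CPM in the poor tumors and at 260.1, 154, 178, 233 and 145 CPM in the rich tumors (log2 difference -0.94, SE 0.18). Ctss and Ctsl separated the classes in opposite directions, and Ctsh overlapped, since vehicle tumor 5 lay below liraglutide tumor 2. C3 (log2 difference 0.88, SE 0.2952) and Cfb (log2 difference 0.35, SE 0.18), members of the complement cascade, did not pass.

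**Figure D3:**
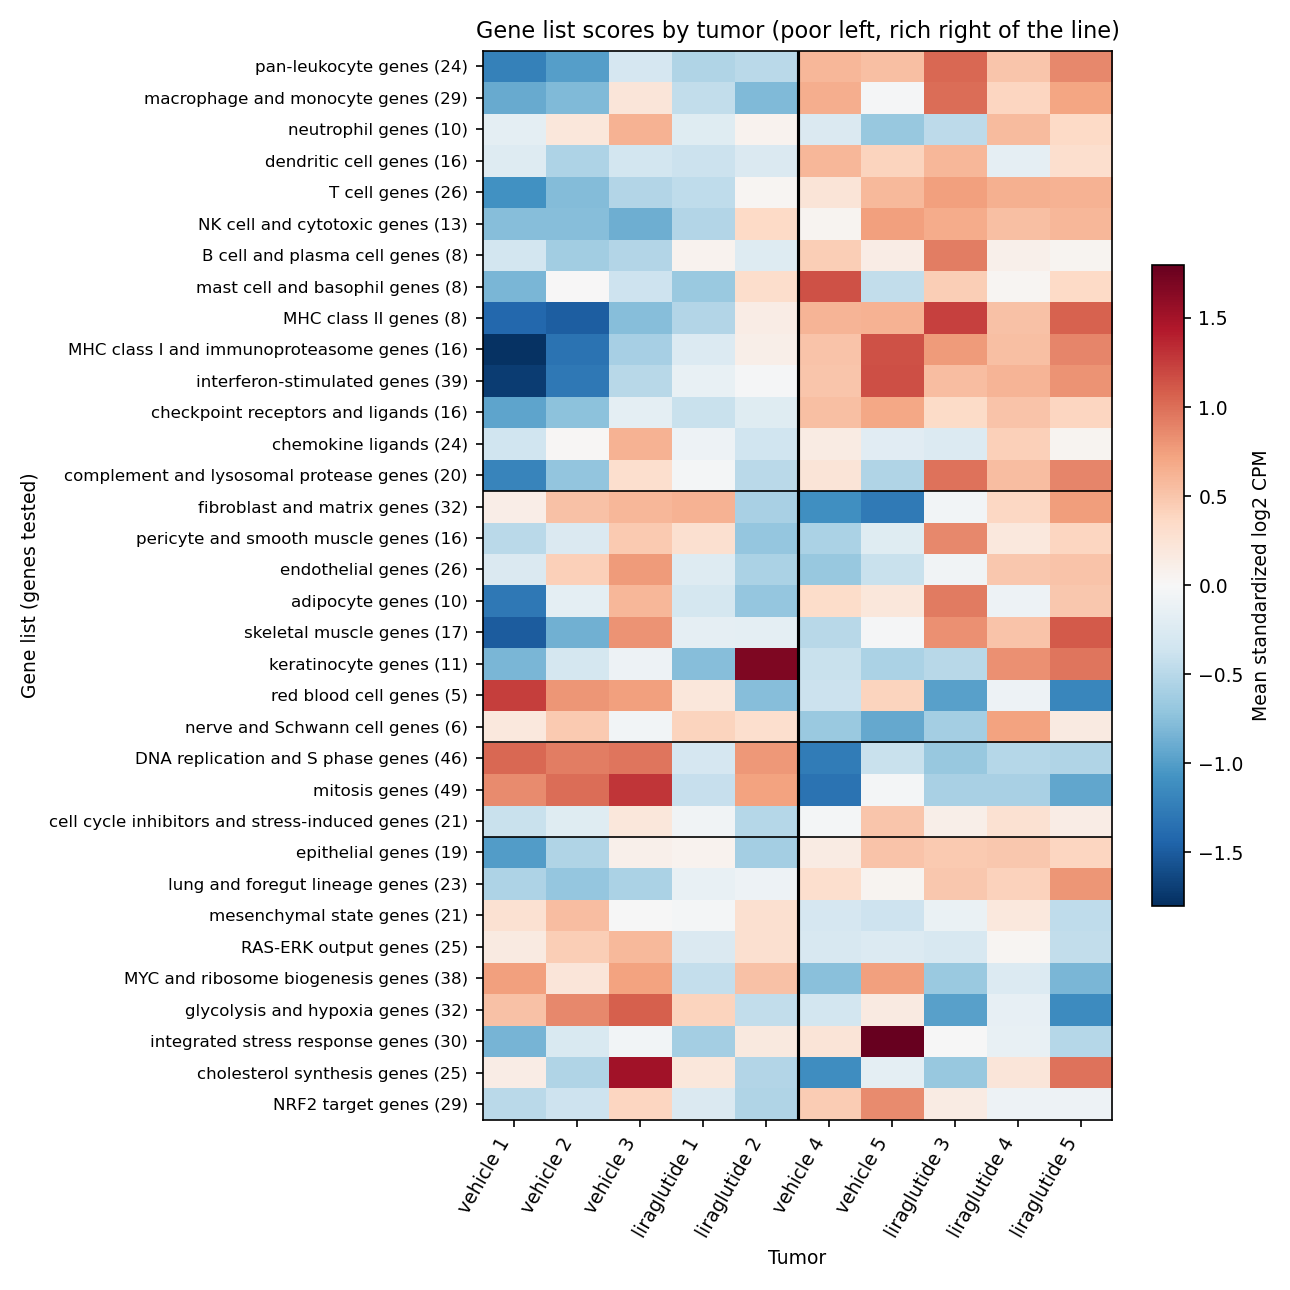
Scores of 34 gene lists (rows, with the number of genes tested) in the 10 tumors (columns, poor left and rich right of the vertical line), as the mean over genes of log2 CPM standardized over tumors, red high and blue low. Horizontal lines part the immune, stromal, proliferation and tumor-cell programs. The interferon list is at -1.70 in vehicle tumor 1 and 1.16 in vehicle tumor 5, and the DNA replication list is below 0 in all 5 rich tumors.

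The fibroblast and matrix list had 0 of 32 tested members higher in the rich tumors past the threshold, 2 lower and 30 neither, with a median log2 difference of -0.22. Of the 32 differences 3 were positive. Without vehicle tumor 5, 8 were positive and the median was -0.14, and without liraglutide tumor 2, 7 genes passed as lower and the median was -0.45. Col1a1, the main chain of type I collagen, was at 1061, 1041, 836, 1227 and 588 CPM in the poor tumors and at 386, 459, 824, 1061 and 1079 CPM in the rich tumors (log2 difference -0.54, SE 0.28), and Col3a1 ranged from 741 to 1482 CPM in the poor tumors and from 523 to 1171 CPM in the rich tumors (log2 difference -0.66, SE 0.27). Both were lowest in vehicle tumors 4 and 5 and overlapped, as liraglutide tumors 3, 4 and 5 were within the poor range. The class difference of the list was -0.75 among vehicle and 0.12 among liraglutide tumors. The fibroblast markers Pdgfra (log2 difference -0.27, SE 0.27), Dcn (log2 difference -0.53, SE 0.25) and Fap (log2 difference -0.07, SE 0.18) did not pass. The 2 lower members were the matrix glycoproteins fibronectin and fibulin 2. Fn1 was at 3456, 3323, 1785, 3056 and 3647 CPM in the poor tumors and at 1631, 827, 1586, 2203 and 1635 CPM in the rich tumors (log2 difference -1.05, SE 0.23), and Fbln2 ranged from 388 to 761 CPM in the poor tumors and from 246 to 389 CPM in the rich tumors (log2 difference -0.78, SE 0.18). Fibronectin is made by tumor cells as well as fibroblasts.

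Among vessel genes, the endothelial list had 0 of 26 tested members higher in the rich tumors past the threshold, 1 lower and 25 neither, with a median log2 difference of -0.02. Pecam1 (CD31) ranged from 27.02 to 41.7 CPM over all tumors (log2 difference -0.11, SE 0.15), the endothelial cadherin Cdh5 from 31.1 to 55.1 CPM (log2 difference -0.27, SE 0.15) and the receptor Kdr from 19.2 to 32.3 CPM (log2 difference 0.12, SE 0.18), and none passed. Lyve1, a receptor of lymphatic vessels and of some macrophages, was at 56.5 CPM in vehicle tumor 5 and at most 12.7 CPM in any other tumor. Cldn5, a tight junction protein of endothelium, was the single member past the threshold (log2 difference -0.99, SE 0.32), from 1.52 to 3.75 CPM in the poor tumors and from 0.744 to 1.51 CPM in the rich tumors. The list had no lower call without vehicle tumors 2, 4 or 5 or liraglutide tumors 1, 3 or 5, each left out alone, and its median then lay on either side of 0, from -0.15 to 0.08. The pericyte and smooth muscle list had 3 of 16 tested members higher in the rich tumors past the threshold, 0 lower and 13 neither, with a median log2 difference of 0.09. Its defining genes Pdgfrb (log2 difference -0.01, SE 0.14), Acta2 (log2 difference 0.12, SE 0.1992), Rgs5 (log2 difference 0.07, SE 0.21) and Myh11 (log2 difference -0.45, SE 0.36) did not pass. The 3 higher members were Cspg4, the NG2 proteoglycan that tumor cells also make (log2 difference 1.58, SE 0.37), Cox4i2 (log2 difference 1.15, SE 0.31) and Tpm2 (log2 difference 0.91, SE 0.24). Cspg4 was at 22.9, 21.3, 42.3, 50.7 and 29.1 CPM in the poor tumors and at 51.5, 165, 146, 53.1 and 86.7 CPM in the rich tumors, and vehicle tumor 5 was the highest. Without that tumor none of the 3 passed, and without liraglutide tumor 2, 1 did, with a list median of -0.07. None passed when the 3 tumors that share chromosome medians were left out.

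Genes of the tissues around the implant varied from tumor to tumor. The skeletal muscle list had 1 of 17 tested members higher in the rich tumors past the threshold, 0 lower and 16 neither, with a median log2 difference of 0.42. Of the 17 differences 15 were positive. None passed without vehicle tumor 5 or liraglutide tumor 2, while without vehicle tumor 3, 8 passed and the median was 0.99. Myh4, a fast muscle myosin, was at 7.46, 14.8, 113, 11.8 and 55.3 CPM in the poor tumors and at 7.87, 28.8, 91.6, 87.9 and 149.6 CPM in the rich tumors (log2 difference 0.24, SE 0.96). The keratinocyte list had 0 of 11 tested members higher in the rich tumors past the threshold, 0 lower and 11 neither, with a median log2 difference of -0.46. Without liraglutide tumor 2 all 11 differences were positive and the median was 0.69, and without the 3 tumors that share chromosome medians it was 0.57. Krt14, of basal skin cells, was at 2.003, 2.84, 8.29, 3.71 and 93.9 CPM in the poor tumors and at 5.104, 11.7, 4.55, 26.2 and 25.5 CPM in the rich tumors (log2 difference -0.35, SE 0.81). The adipocyte list had 2 of 10 tested members higher in the rich tumors past the threshold, 0 lower and 8 neither, with a median log2 difference of 0.34. Of the 10 differences 8 were positive. The 2 higher members were Gpd1 (log2 difference 1.355, SE 0.245) and Pnpla2 (0.697, SE 0.151), and both overlapped. Fabp4 ranged from 10.97 to 56.3 CPM in the poor tumors and from 12.8 to 20.6 CPM in the rich tumors (log2 difference -0.43, SE 0.46). The adipocyte median was 0.59 without vehicle tumor 3, 0.51 without vehicle tumor 5, and -0.07 with no call without the 3 tumors. Krt14 stood at 93.9 CPM in liraglutide tumor 2, and Myh4 varied over the 10 tumors from 7.46 to 149.6 CPM. The summed level of the muscle list ranged from 129.9 to 486 CPM in the poor tumors and from 171 to 558 CPM in the rich tumors, and that of the keratinocyte list from 19.3 to 341 CPM in the poor tumors and from 22.3 to 122 CPM in the rich tumors. Adipoq was at most 6.30 CPM and Plin1 at most 2.94 CPM, both in vehicle tumor 3. Red blood cell genes had 0 of 5 tested members higher in the rich tumors past the threshold, 0 lower and 5 neither, with a median log2 difference of -0.66, with Hbb-bs from 5.47 to 42.8 CPM in the poor tumors and from 2.83 to 35.9 CPM in the rich tumors, and the median was -1.17 without vehicle tumor 5 and -0.40 without liraglutide tumor 1. Without vehicle tumor 4, 1 red blood cell gene passed as lower. The nerve and Schwann cell list had 0 of 6 tested members higher in the rich tumors past the threshold, 1 lower and 5 neither, with a median log2 difference of -0.25, and Sox10 was below the filter. The nerve median was -0.14 without vehicle tumor 5 and -0.37 without liraglutide tumor 4. Scn7a, a sodium channel of glia and other cells, was the lower member, at 44.7, 50.7, 23.2, 6.05 and 71.8 CPM in the poor tumors and at 11.1, 5.29, 10.5, 11.9 and 9.38 CPM in the rich tumors (log2 difference -2.07, SE 0.52), and it did not pass without vehicle tumor 5 or without liraglutide tumor 2. The part of these tissues in the class differences was not tested.

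The DNA replication and S phase list had 0 of 46 tested members higher in the rich tumors past the threshold, 19 lower and 27 neither, with a median log2 difference of -0.56, and all 46 differences were negative. Its score was 1.04, 0.92, 0.96, -0.31 and 0.78 in the poor tumors and -1.25, -0.3958, -0.69, -0.51 and -0.54 in the rich tumors. Vehicle tumors 1, 2 and 3 and liraglutide tumor 2 were positive, vehicle tumor 4 was lowest, and liraglutide tumor 1, though poor, lay among the rich tumors in sign. The mitosis list had 0 of 49 tested members higher in the rich tumors past the threshold, 24 lower and 25 neither, with a median log2 difference of -0.58, all 49 differences negative. Its score was 0.86, 1.01, 1.29, -0.41 and 0.72 in the poor tumors and -1.33, -0.03, -0.59, -0.58 and -0.93 in the rich tumors, so the classes overlapped by liraglutide tumor 1.

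Pcna, the sliding clamp of DNA polymerase, was at 107, 126, 113, 79.2 and 107 CPM in the poor tumors and at 71.1, 79.9, 65.3, 60.1 and 67.1 CPM in the rich tumors (log2 difference -0.57, SE 0.101) and Mcm5, of the replicative helicase, from 31.8 to 60.1 CPM in the poor tumors and from 21.1 to 46.7 CPM in the rich tumors (log2 difference -0.53, SE 0.21), and both stayed under the limits. Rrm2, of ribonucleotide reductase, did not separate the classes (log2 difference -0.06, SE 0.25), with vehicle tumor 5 the highest of all at 218 CPM. The members with the largest differences were Gins1, another part of the helicase (log2 difference -1.01, SE 0.1975), and Hells, a chromatin remodeler (log2 difference -0.98, SE 0.21). Gins1 was at 12.4, 14.1, 16.4, 10.3 and 14.2 CPM in the poor tumors and at 5.36, 5.54, 8.87, 8.41 and 6.25 CPM in the rich tumors. Top2a, topoisomerase II alpha, was at 666, 748, 689.6, 386 and 662 CPM in the poor tumors and at 303, 470.5, 387, 387 and 332 CPM in the rich tumors (log2 difference -0.68, SE 0.17). Bub1, a spindle checkpoint kinase, was at 76.6, 99.2, 85.4, 35.5 and 76.8 CPM in the poor tumors and at 31.04, 35.8, 36.2, 37.1 and 27.2 CPM in the rich tumors (log2 difference -1.06, SE 0.22). Ube2c, of the anaphase-promoting machinery, ranged from 32.9 to 58.6 CPM in the poor tumors and from 16.1 to 31.9 CPM in the rich tumors (log2 difference -0.97, SE 0.1961). Liraglutide tumor 1 was the lowest poor tumor for all 4. Mki67 did not pass, at 721, 788, 832, 498 and 817 CPM in the poor tumors and at 449, 836, 601, 574 and 583 CPM in the rich tumors (log2 difference -0.22, SE 0.17), and neither did Ccnb1, cyclin B1 (log2 difference -0.45, SE 0.13). The class difference of log2 CPM was -0.77 among vehicle and -0.39 among liraglutide tumors for mitosis and -0.73 among vehicle and -0.33 among liraglutide tumors for replication. Without vehicle tumor 4, 12 replication and 11 mitosis genes passed as lower, without liraglutide tumor 1, 29 replication genes did, and without liraglutide tumor 2, 13 mitosis genes. Without the 3 tumors that share chromosome medians none of either list passed, with medians of -0.42 and -0.48, and none passed in a fit blocked on tumor number. Over all tested genes, these fits passed 1.4% and 0%.

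The list of cell cycle inhibitors and stress-induced genes had 2 of 21 tested members higher in the rich tumors past the threshold, 1 lower and 18 neither, with a median log2 difference of 0.17. Btg2, an antiproliferative gene, was at 9.05, 22.8, 19.5, 11.9 and 10.6 CPM in the poor tumors and at 34.6, 42.03, 35.9, 27.4 and 34.4 CPM in the rich tumors (log2 difference 1.35, SE 0.22), and Sesn2, a stress-induced regulator of mTORC1, was higher as well (log2 difference 0.85, SE 0.26). Plk2, a stress-induced polo-like kinase, was lower (log2 difference -0.77, SE 0.14). Cdkn1a, the inhibitor p21, (log2 difference 0.2005, SE 0.19), Cdkn2a, the locus of p16 and p19ARF, (log2 difference 0.75, SE 0.45) and Mdm2 (log2 difference -0.36, SE 0.12) did not pass.

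Tumor-cell genes went both ways. The lung and foregut lineage list had 7 of 23 tested members higher in the rich tumors past the threshold, 2 lower and 14 neither, with a median log2 difference of 0.97. The median was 0.52 over members with 10 or more counts in each tumor. Without the 3 tumors that share chromosome medians, 1 of the 23 passed, with a median of 0.55. Nkx2-1 was at 25.2, 17.7, 26.6, 66.1 and 52.2 CPM in the poor tumors and at 95.4, 66.6, 109, 100 and 132 CPM in the rich tumors (log2 difference 1.37, SE 0.1952). Ager, a marker of type I lung cells, was at 2.62, 2.64, 3.15, 3.97 and 7.35 CPM in the poor tumors and at 22.4, 5.05, 28.96, 9.54 and 33.2 CPM in the rich tumors (log2 difference 2.18, SE 0.43). Sftpc, the surfactant protein of type II lung cells, was at 0.0691, 0, 0.105, 0.0864 and 2.94 CPM in the poor tumors and at 4.85, 0.733, 4.17, 1.04 and 5.96 CPM in the rich tumors (log2 difference 2.43, SE 0.8991), below the level of 3 counts in 4 poor tumors, and did not pass. Nkx2-1 separated the classes by a small margin, with liraglutide tumor 1 at 66.1 and vehicle tumor 5 at 66.6, and vehicle tumors 1, 2 and 3 lowest. Ager and Sftpc overlapped and were low in vehicle tumor 5. The gut and liver factor Hnf4a ranged from 171 to 390.3 CPM (log2 difference 0.37, SE 0.16) and did not pass, and Sox2, of proximal airways, had 1 count in vehicle tumor 2 and none elsewhere. The 2 lower members were Sox9, a factor of distal lung progenitors (log2 difference -1.29, SE 0.2994), and the pioneer factor Foxa1 (log2 difference -0.59, SE 0.18). These levels bear on the label of the line: Nkx2-1 and Hnf4a were present in every tumor, and Sftpc was at most 5.96 CPM in any.

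Epithelial genes had 5 of 19 tested members higher in the rich tumors past the threshold, 0 lower and 14 neither, with a median log2 difference of 0.47. None passed without the 3 tumors that share chromosome medians, with a median of 0.26. E-cadherin, Cdh1, was at 559.9, 617, 814, 1440 and 966 CPM in the poor tumors and at 1417, 2236, 1969, 1708 and 1711 CPM in the rich tumors (log2 difference 1.02, SE 0.21), and Cdh3, P-cadherin, ranged from 4.26 to 12.3 CPM in the poor tumors and from 11.97 to 35.1 CPM in the rich tumors (log2 difference 1.35, SE 0.33). Krt8 ranged from 1631 to 3294 CPM and Krt18 from 1039 to 1999 CPM, and neither passed (0.16 and -0.17 as log2 differences). Epcam was at most 4.63 CPM. The mesenchymal state list had 1 of 21 tested members higher in the rich tumors past the threshold, 3 lower and 17 neither, with a median log2 difference of -0.27. The median was -0.10 without vehicle tumor 5 and -0.12 when every gene with a count was kept, and none of the 21 passed without the 3 tumors that share chromosome medians. Hmga2 was at 551, 506, 398, 304 and 502 CPM in the poor tumors and at 219, 299.7, 197, 250 and 136 CPM in the rich tumors (log2 difference -0.98, SE 0.19). Itga5, the fibronectin receptor chain, was at 268, 372, 179, 119 and 238 CPM in the poor tumors and at 66.8, 57.3, 68.5, 111 and 66.5 CPM in the rich tumors (log2 difference -1.63, SE 0.2987). Wnt5a, a ligand of noncanonical WNT signaling, was at 60.5, 79.8, 21.2, 15.8 and 33.96 CPM in the poor tumors and at 4.77, 6.598, 8.87, 12 and 11.8 CPM in the rich tumors (log2 difference -2.18, SE 0.49). All 3 separated the classes, liraglutide tumor 1 was the lowest poor tumor for each, and vehicle tumors 1 and 2 the highest. Vim (log2 difference -0.38, SE 0.09), Zeb1 (log2 difference -0.48, SE 0.11) and Cdh2 (log2 difference -0.13, SE 0.12) did not pass, and S100a4, also called FSP1 and expressed by leukocytes too, was the single higher member (log2 difference 1.12, SE 0.22).

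**Figure D4:**
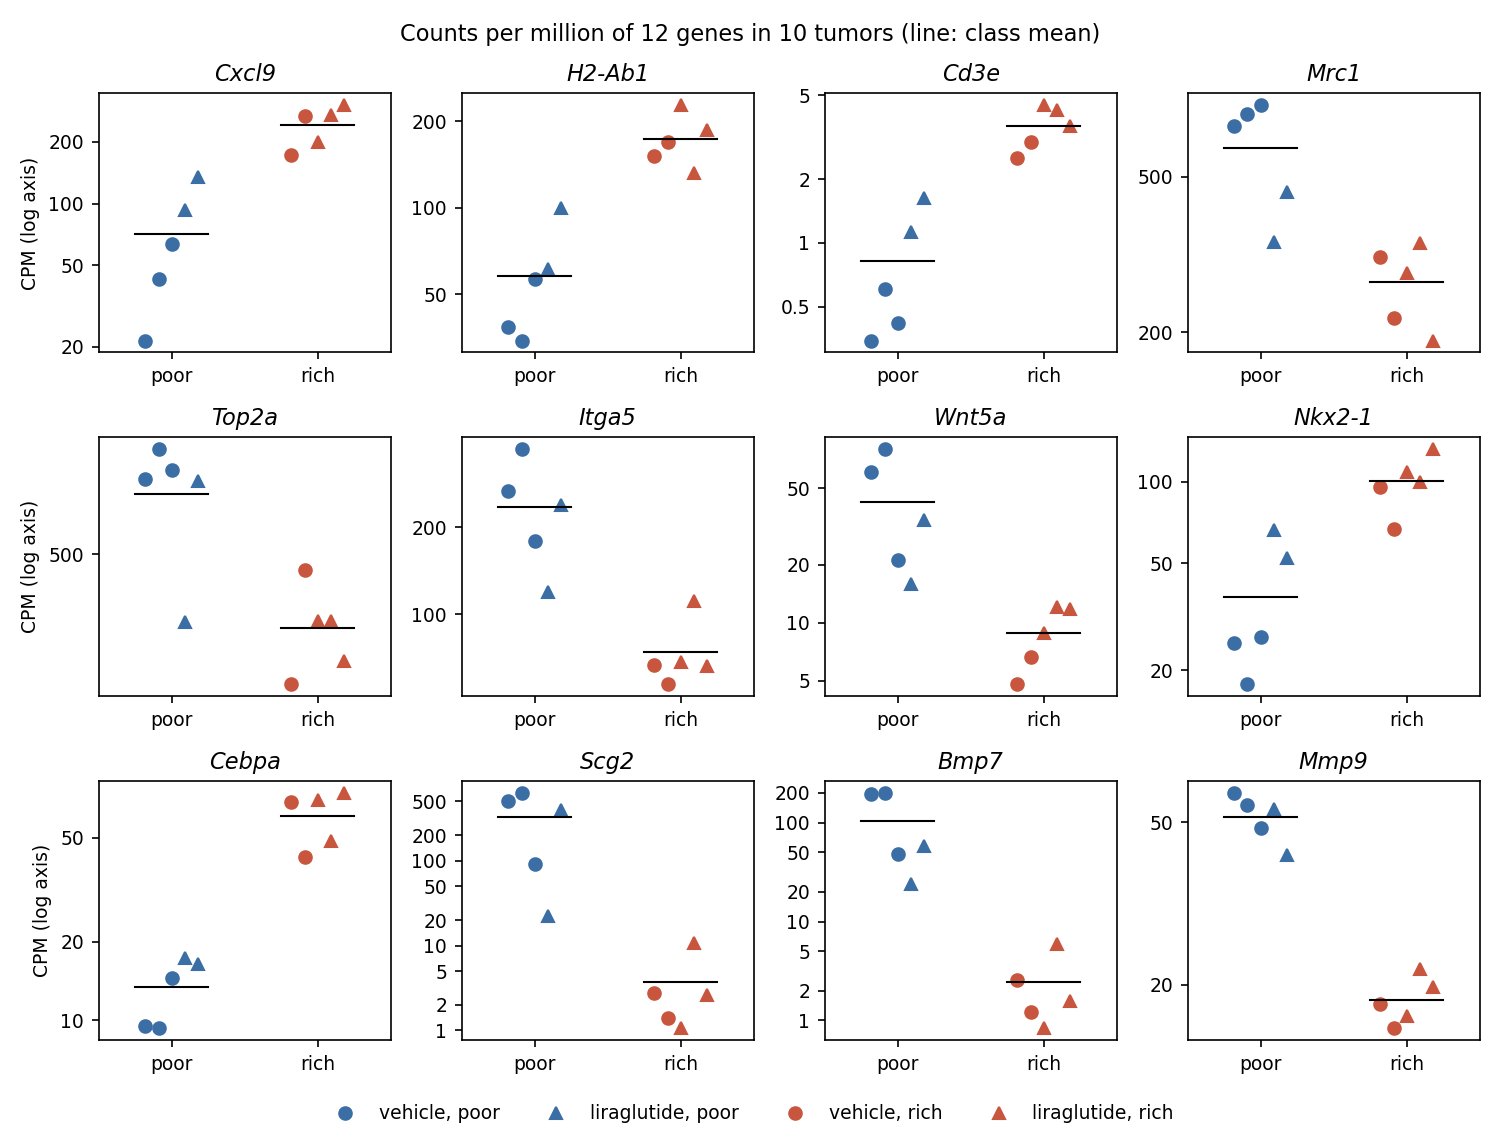
CPM (log axis) of 12 genes in the 5 poor and 5 rich tumors, circles for vehicle and triangles for liraglutide, with a line at the class mean. The classes are apart for all genes shown but Top2a, where liraglutide tumor 1, at 386 CPM, lies among the rich tumors.

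The output of RAS-ERK signaling had 2 of 25 tested members higher in the rich tumors past the threshold, 7 lower and 16 neither, with a median log2 difference of -0.28. Without vehicle tumor 5, 5 passed as lower and the median was -0.18, and without the 3 tumors that share chromosome medians 0 passed as higher and 1 as lower. Dusp6, a phosphatase induced by ERK, ranged from 183 to 279.7 CPM over all tumors (log2 difference 0.05, SE 0.09616) and did not pass. Ier3, an immediate early gene, was at 125, 175, 99.6, 79.4 and 75.5 CPM in the poor tumors and at 31.2, 37.2, 34.6, 57.1 and 27.8 CPM in the rich tumors (log2 difference -1.46, SE 0.26), and Spry1, a Sprouty inhibitor, at 7.81, 6.18, 7.46, 13.5 and 14.04 CPM in the poor tumors and at 28.2, 24.5, 27.98, 20.6 and 38.1 CPM in the rich tumors (log2 difference 1.47, SE 0.2008). The 2 genes separated the classes in opposite directions. Spry4, of the same family, did not pass (log2 difference -0.79, SE 0.27). The MYC and ribosome biogenesis list had 0 of 38 tested members higher in the rich tumors past the threshold, 0 lower and 38 neither, with a median log2 difference of -0.14, and the median was -0.22 without vehicle tumor 5 and -0.08 without vehicle tumor 4 or liraglutide tumor 2. In this list 4 genes passed as lower without liraglutide tumor 1 and 1 without vehicle tumor 5. Myc ranged from 103 to 154 CPM (log2 difference -0.2049, SE 0.09), and the nucleolar proteins Ncl (log2 difference -0.13, SE 0.09649) and Npm1 (log2 difference -0.53, SE 0.09663) stayed under the limit. The cholesterol synthesis list had 0 of 25 tested members higher in the rich tumors past the threshold, 0 lower and 25 neither, with a median log2 difference of -0.1001, with a median that was -0.25 without liraglutide tumor 2 and 0.02 without vehicle tumor 4, and Sqle, squalene epoxidase, was at -0.08 as a log2 difference.

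Glycolysis and hypoxia genes had 1 of 32 tested members higher in the rich tumors past the threshold, 9 lower and 22 neither, with a median log2 difference of -0.42. Without the 3 tumors that share chromosome medians 0 passed as higher and 3 as lower, with a median of -0.56. Slc2a1, the glucose transporter GLUT1, was at 241, 348, 302, 194 and 180.3 CPM in the poor tumors and at 109.6, 216, 99.1, 151 and 101 CPM in the rich tumors (log2 difference -0.78, SE 0.19). Adm, adrenomedullin, was at 31.3, 43.7, 36.96, 20.8 and 10.5 CPM in the poor tumors and at 8.03, 9.204, 3.03, 12.4 and 7.15 CPM in the rich tumors (log2 difference -1.598, SE 0.36). Both overlapped, Slc2a1 because vehicle tumor 5 lay above liraglutide tumors 1 and 2, and Adm because liraglutide tumor 4 lay above liraglutide tumor 2. Car9, a carbonic anhydrase induced by hypoxia, went the other way, at 25.01, 17.1, 24.04, 22.5 and 12.7 CPM in the poor tumors and at 36.7, 155, 17.8, 72.3 and 23.7 CPM in the rich tumors (log2 difference 1.62, SE 0.46), with vehicle tumor 5 far above the rest. Without that tumor the difference was 0.96 and did not pass, and the call was lost in 6 of the 10 fits without single tumors. Vegfa did not pass (log2 difference -0.48, SE 0.14). The integrated stress response list had 7 of 30 tested members higher in the rich tumors past the threshold, 0 lower and 23 neither, with a median log2 difference of 0.45. Asns, asparagine synthetase, was at 30.3, 51.2, 47.2, 30.4 and 57.6 CPM in the poor tumors and at 81.4, 206, 82.6, 52.05 and 52.3 CPM in the rich tumors (log2 difference 1.13, SE 0.33), and Gpt2, an alanine transaminase, at 13.9, 20.8, 24.99, 25.5 and 28.98 CPM in the poor tumors and at 56.2, 174, 51.8, 38.8 and 43.6 CPM in the rich tumors (log2 difference 1.63, SE 0.38). Trib3 ranged from 9.26 to 26.3 CPM in the poor tumors and from 15.3 to 69.8 CPM in the rich tumors (log2 difference 1.28, SE 0.38), and Ddit3, which encodes CHOP, did not pass (log2 difference 0.33, SE 0.29). Vehicle tumor 5 was highest in Asns, Gpt2, Trib3 and Ddit3, and without it 2 of the 30 genes passed as higher, 1 as lower, and the median was 0.13. As higher, 2 passed without vehicle tumor 1 or 2, 4 without liraglutide tumor 1 or 3, 11 without liraglutide tumor 2 and 1 without the 3 tumors that share chromosome medians. The NRF2 target list had 6 of 29 tested members higher in the rich tumors past the threshold, 0 lower and 23 neither, with a median log2 difference of 0.22, and none passed without the 3 tumors that share chromosome medians. Gstm1, a glutathione transferase, was at 12.5, 12.2, 11.97, 40.7 and 37.2 CPM in the poor tumors and at 168, 24.7, 216, 85.8 and 194 CPM in the rich tumors (log2 difference 2.52, SE 0.45), and Ces2g, a carboxylesterase, from 1.45 to 3.95 CPM in the poor tumors and from 3.31 to 54.5 CPM in the rich tumors (log2 difference 2.48, SE 0.68). The Ces2g difference was 1.105 without vehicle tumor 5 and did not pass. Nqo1 (log2 difference 0.6984, SE 0.44), Gclm (log2 difference 0.3042, SE 0.11) and Hmox1 (log2 difference -0.33, SE 0.16) did not pass.

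**Figure D5:**
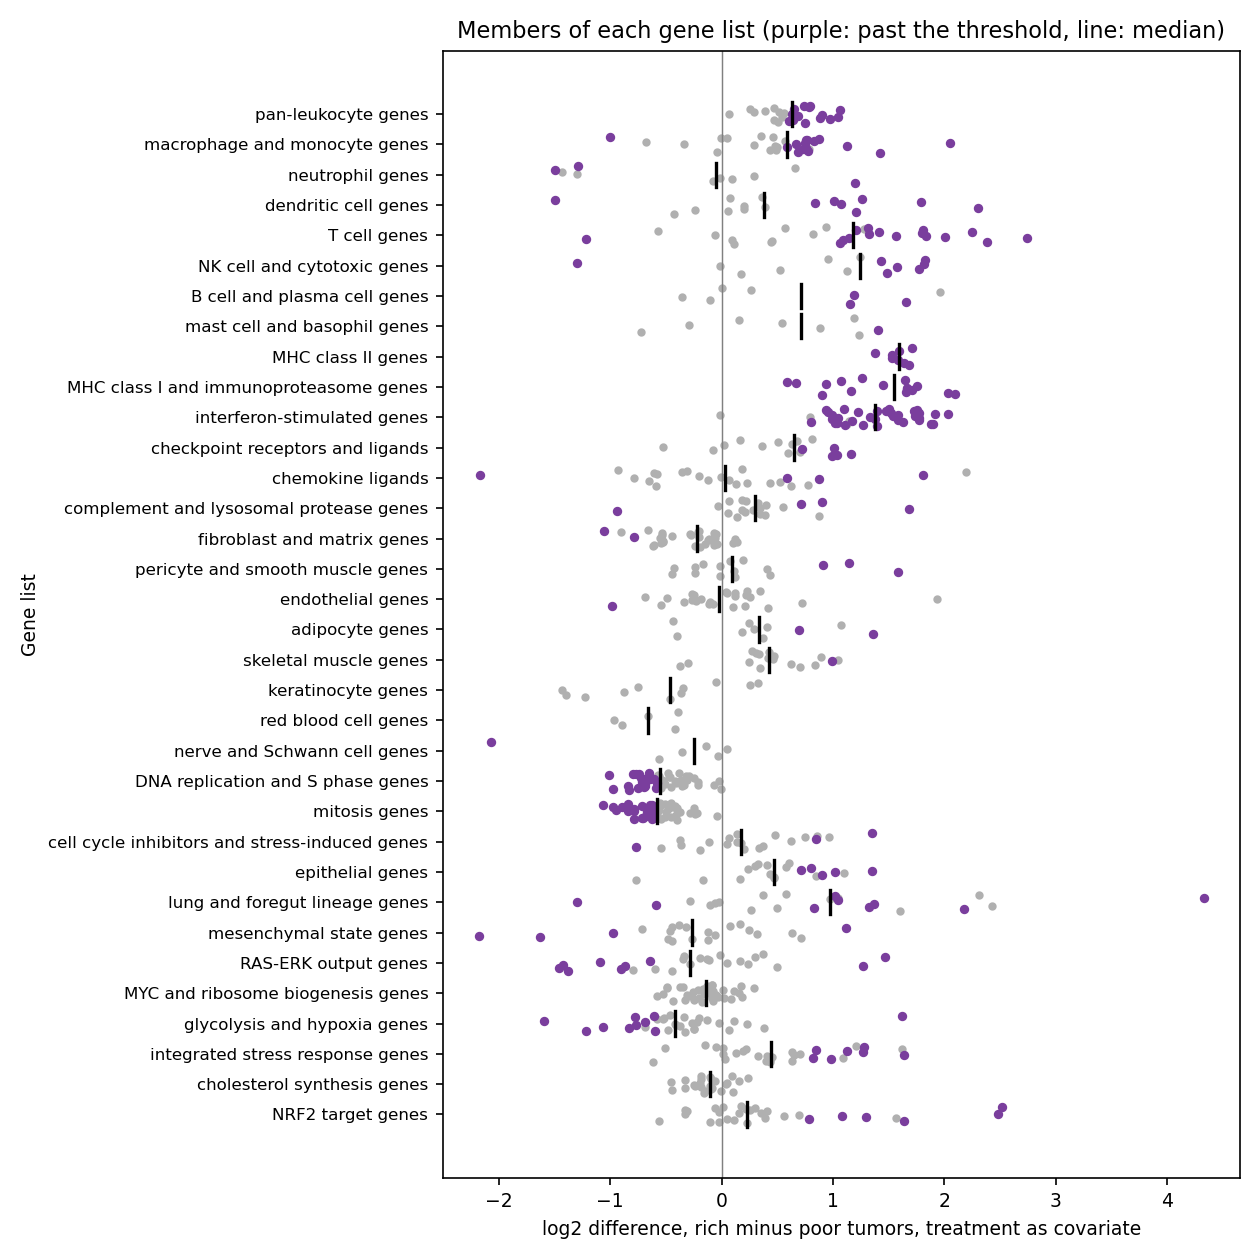
Log2 difference, rich minus poor tumors with treatment as covariate, of every tested member of the 34 gene lists (x axis, 1 point per gene), with members past the threshold in purple and the list median as a black line. The MHC class II members lie between 1.38 and 1.71, and the members of the replication and mitosis lists all lie below 0.

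Genes outside the lists, taken by smallest p among those past the threshold without overlap, gave further members of the axis. Higher in the rich tumors were Pkhd1, Sgpp2, Cebpa, Vcam1, Fas, Tgoln1, Chpt1 and Tmem176a. Cebpa, a differentiation factor of myeloid and lung epithelial cells, was at 9.53, 9.33, 14.6, 17.3 and 16.4 CPM in the poor tumors and at 68.95, 42.4, 70.1, 48.8 and 74.4 CPM in the rich tumors (log2 difference 2.13, SE 0.19). Fas, the death receptor CD95, was at 1.31, 1.42, 2.52, 3.196 and 3.35 CPM in the poor tumors and at 10.5, 7.74, 12.2, 11.3 and 15.7 CPM in the rich tumors (log2 difference 2.19, SE 0.22). Vcam1, an adhesion molecule for leukocytes, was at 97.8, 100.5, 138, 166 and 151 CPM in the poor tumors and at 332, 327, 319, 325 and 399 CPM in the rich tumors (log2 difference 1.34, SE 0.13). The absence of overlap in these genes was a condition of their choice. Sgpp2, a sphingosine phosphatase, ranged from 8.15 to 17.7 CPM in the poor tumors and from 63.3 to 123 CPM in the rich tumors (log2 difference 2.63, SE 0.201), and Pkhd1, the fibrocystin gene of epithelia, from 9.73 to 16.7 CPM in the poor tumors and from 52.95 to 75.3 CPM in the rich tumors (log2 difference 2.15, SE 0.16). Lower were Tubb5, Qrfp, D630045J12Rik, Nes, Klhl1, Pwwp3b, Hmga1 and Cmtm3. Nes, the intermediate filament nestin, was at 323, 252, 193, 203 and 308 CPM in the poor tumors and at 34.6, 84.96, 51.8, 79.6 and 75.4 CPM in the rich tumors (log2 difference -1.99, SE 0.25). Hmga1, a chromatin protein of proliferating and undifferentiated cells, was at 585, 642, 451, 354 and 439 CPM in the poor tumors and at 196, 290.1, 185, 224 and 169 CPM in the rich tumors (log2 difference -1.12, SE 0.15). Tubb5, a beta-tubulin, was at 1104, 1125, 914, 856 and 957 CPM in the poor tumors and at 524, 558, 562, 601 and 576 CPM in the rich tumors (log2 difference -0.7991, SE 0.0979). Klhl1 ranged from 26.8 to 63.97 CPM in the poor tumors and from 3.57 to 13.3 CPM in the rich tumors (log2 difference -2.63, SE 0.34) and Qrfp, a neuropeptide precursor, from 29.2 to 39.5 CPM in the poor tumors and from 13.3 to 17.99 CPM in the rich tumors (log2 difference -1.11, SE 0.12).

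Of the 34 lists, 10 had scores that did not overlap between the classes, namely the pan-leukocyte, dendritic cell, T cell, MHC class II, MHC class I, interferon, checkpoint, replication, epithelial and lineage lists. Of the medians, 21 were positive and 13 negative. Of 102 genes past the threshold whose values are described here, 80 passed in each of the 10 fits without single tumors. Many of these genes were named for their size, p or lack of overlap in the same contrast, so this count supports nothing. Of all 2512 genes past the threshold, each fit without a single tumor kept between 1721 and 2364. Ace, Acod1, Adgre1, Asns, Btla, Car9, Ccl24, Cd22, Ces2g, Cldn5, Cox4i2, Cspg4, Flt3, Foxa1, Gkn2, Il1r2, Laptm5, Scn7a, Sesn2, Top2a, Tpm2 and Trib3 lost the call in at least 1 of these fits, and each of the 22 kept its direction. The vehicle tumor 5 omission gave log2 differences smaller by more than 1.5 times for Asns (0.67), Cdh3 (0.82), Gpt2 (1.03), Sesn2 (0.47) and Tpm2 (0.56), and without liraglutide tumor 2 that of Scn7a was -1.304 and that of Btla 1.79. Tcf7, Klra4, Fscn1, Acod1, Tpm2, Plk2, Sox9, Foxa1 and S100a4 fall outside the naming rule and were chosen after their values were seen.

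Treatment was labelled independently of Ptprc and could be tested. Ptprc was 0.25 higher on the log2 scale in liraglutide than in vehicle tumors (two-sided exact permutation test on log2 CPM, p = 0.421, n = 5 and 5, smallest possible p 0.00794). Of the vehicle tumors 2 were rich and of the liraglutide tumors 3 (two-sided Fisher's exact test, p = 1). Neither test gave a p under 0.05.

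With the class in the model as a covariate, the comparison of liraglutide with vehicle had 0% of genes past the threshold (0 of 17463 in edgeR's quasi-likelihood test, smallest adjusted p 0.219), while 2089 had an unadjusted p under 0.05, 988 higher and 1101 lower. DESeq2 called 94. Without the class term edgeR also called none, and 1675 genes had an unadjusted p under 0.05. Ace, the angiotensin-converting enzyme, was at 31.9, 34.9, 29.1, 63.5 and 50.3 CPM in vehicle tumors 1 to 5 and at 58.3, 83.7, 84.6, 84.8 and 136 CPM in liraglutide tumors 1 to 5. Its log2 difference was 0.99 with an SE of 0.17 beside the class, against 1.09 with an SE of 0.26 without it (adjusted p 0.219 and 0.482, edgeR). Nfix, a nuclear factor I family member, was at 75.2, 72.6, 66.5, 79.3 and 96.8 CPM in vehicle tumors 1 to 5 and at 116, 124, 119, 107 and 135 CPM in liraglutide tumors 1 to 5 (log2 difference 0.60, SE 0.10), and Cachd1 at 17.3, 12.6, 19.7, 21.8 and 18 CPM in vehicle tumors 1 to 5 and at 33.7, 25.4, 38.2, 31.3 and 36.5 CPM in liraglutide tumors 1 to 5 (0.83, SE 0.14). The treatments did not overlap in Nfix and Cachd1. Rpl39, a ribosomal protein with many pseudogenes, was at 408, 502, 423, 355 and 283 CPM in vehicle tumors 1 to 5 and at 255, 286, 198, 229 and 176 CPM in liraglutide tumors 1 to 5 (log2 difference -0.69, SE 0.11), and Trnt1, which adds CCA to tRNA ends, at 99.5, 94.4, 97.8, 92.5 and 123 CPM in vehicle tumors 1 to 5 and at 61.9, 72.4, 69.1, 68.9 and 62.5 CPM in liraglutide tumors 1 to 5 (-0.61, SE 0.10). Igfbp7 and Heg1 were the other higher genes, and Rps14, Rpl34 and Higd1a the other lower ones, with adjusted p of 0.219 or 0.239 in edgeR's test. Leaving out vehicle tumor 4 raised the count past the threshold from 0 to 37.

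Whether the class difference depended on treatment was tested as an interaction, and 0.00573% of genes, 1 of 17463, passed (edgeR), with 1219 at an unadjusted p under 0.05 and 44 past the threshold in DESeq2. The gene was Sfrp1, a secreted inhibitor of WNT signaling. Among vehicle tumors it was at 19.6, 20.5 and 23.2 CPM in the 3 poor and 4.43 and 4.32 CPM in the 2 rich tumors. Among liraglutide tumors it was at 10.7 and 12 CPM in the 2 poor and 17.1, 14.0 and 18.2 CPM in the 3 rich tumors. The rich tumors were thus lower than the poor ones under vehicle and higher under liraglutide, a difference between the class differences of 2.797 on the log2 scale (SE 0.26, adjusted p 0.0102, edgeR). No gene passed when vehicle tumor 2, 4 or 5 or liraglutide tumor 1, 2, 3 or 5 was left out. Sfrp1 is outside the naming rule and was chosen as the single gene that passed. For the gene lists, the values given for vehicle and for liraglutide tumors were not tested against each other.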

How the data were processed

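RNA sequencing of 10 subcutaneous KPN1.1 tumors, 5 from vehicle and 5 from liraglutide mice, was used. The authors deposited 1 table of raw counts per gene, made per the study's methods with TopHat, Bowtie and featureCounts. The methods name GRCm39, while the submitters' processing notes list FastQC, GRCh38 and mm10, so the build is not settled, and the strand and multiple-mapping settings were not given in the sources used here. Of 55401 identifiers, 51731 (93.38%, with 98.31% of counts) were named from GENCODE M39.

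Tumors with Ptprc above 55 CPM of total counts formed the rich class. The members, gene lists and tests were chosen with earlier results of these data known. Genes were filtered with filterByExpr, normalized by TMM and fitted in edgeR 4.0.16 (R 4.3.3) with the quasi-likelihood test, class and treatment as terms, without Ptprc in the tested set. CPM values use a prior count of 2 only on the log2 scale. The threshold was an adjusted p under 0.05 by Benjamini-Hochberg together with a log2 difference beyond 0.58 either way. No p is given for the class, which Ptprc selected. Principal components used log2 CPM. DESeq2 1.42.0, other scalings and filters, a replicate block and leaving out each tumor were alternatives. Leaving out vehicle tumors 1 and 2 and liraglutide tumor 2 together was added after seeing the data. Each tumor is a separate sample in the labels, and the p-values of the fits and of the permutation test rest on the spread between tumors. Total counts of 9927942 to 14480593 set the precision, and floors cover counting error only.

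Genes named in the text were the defining genes of each list, the 2 members of each list past the threshold with the largest differences, 8 higher and 8 lower genes outside the lists by smallest p with no overlap and a mean of at least 5 CPM, 5 and 5 genes by smallest p for treatment beside the class, and the 10 largest weights at each end of the first component. In data simulated from these libraries, the fit recovered 54.05% of 111 genes changed by a log2 of 1 and 93.26% of 89 changed by a log2 of 2, with 8 false among 151 calls over 17464 genes. Some genes and alleles are not reported here. Promoter windows came from RefSeq on GRCm38.p6 and the Ptprc position from GENCODE M39 on GRCm39, and the builds were not mixed.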

Additional observations from a re-analysis of the deposited data

Results flagged for a closer look

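Within each treatment group of 5 tumors, the highest and the lowest value of every gene and list score named above were compared with their nearest neighbor. Of 408 groups checked, 17 had a tumor whose gap was over 0.71 of the range, and about 1 in 20 groups would by chance. The flags were thus no more frequent than chance gives, and the tumors are listed by their values only. Among the list scores, liraglutide tumor 1 had a cytotoxic score of -0.52 with the next at 0.35, liraglutide tumor 3 a B cell score of 0.93 with the next at 0.09, and liraglutide tumor 2 a replication score of 0.78 with the next at -0.31.

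Liraglutide tumor 2 also stood apart in Acta2 (20.6 CPM, next 39.5), Mcm5 (52.4, next 36.6), Pecam1 (27.0, next 32.8), Scn7a (71.8, next 11.9) and Top2a (661.6, next 387.4 CPM). Liraglutide tumor 1 stood apart in Btla (0.864, next 2.74) and Sesn2 (10.1, next 15.6 CPM). Vehicle tumor 4 stood apart in Cpa3 (16.2, next 4.20), Gstm1 (168.4, next 24.7), Hbb-bs (9.04, next 29.3), Mcm5 (21.1, next 46.7) and Mki67 (449.3, next 720.8 CPM). Vehicle tumor 5 stood apart in Ces2g (54.5, next 3.95) and Trnt1 (122.9, next 99.6 CPM).

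Sfrp1 had a class difference that differed between the treatments by 2.80 on the log2 scale in the interaction test.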

How the results depend on the processing

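The 2512 genes past the threshold between the classes became 846 (610 higher, 236 lower) without the lowest rich and the highest poor tumor, 244 (187 and 57) without vehicle tumors 1 and 2 and liraglutide tumor 2, and 1817 to 2991 when single tumors were left out (1074 to 1685 higher, 720 to 1306 lower). Fewer tumors entered these fits. The tumor number was not treated as a pairing. Deviations of same-numbered tumors correlated at 0.354, 0.565, -0.0753, 0.0680 and 0.389, and not every tumor correlated best with its own number. With the number as a replicate block, 0 genes passed for the class (0 higher, 0 lower), since only number 3 held both a rich and a poor tumor, 0 passed for the interaction, and Fscn1 (0.0486) and Acod1 (-0.34) turned their direction. With the block 29 of the 34 list medians kept their sign and 21 moved by more than the spread between replicates, among them interferon (0.51), class I (0.68), epithelial (-0.01) and skeletal muscle (-0.83). Ptprc between treatments had p = 0.188 with exact sign flips by number (smallest possible 0.0625). Of the genes that the naming rule takes, including some given by name alone, 113 passed with all tumors, 74 and 38 in the fits without 2 and without 3 tumors, 0 with the block, and 98 to 119 when single tumors were left out. For liraglutide against vehicle beside the class, 94 genes passed in DESeq2, 451 when every gene with a count was kept, and 0 to 37 when single tumors were left out. For the interaction, DESeq2 passed 44, the fit of every gene with a count 566, and fits without single tumors 0 to 1. The cause was not tested. The first component held 36.1% of the variance with standardized genes and 44.2% to 52.7% without single tumors. The classes did not overlap on it in any of these. The keratinocyte median turned positive without liraglutide tumor 2 (0.69) and without the lowest rich and the highest poor tumor (0.70). Without the 3 tumors 28 of 34 list medians kept their sign, and those of the keratinocyte, chemokine ligand, pericyte, adipocyte, skeletal muscle and cell cycle inhibitor lists turned. No member passed in that fit in the dendritic cell, B cell, mast cell, pericyte, endothelial, adipocyte, skeletal muscle, nerve, replication, mitosis, epithelial, mesenchymal and NRF2 lists. Of all tested genes 1.4% passed in it. A level of 3 counts lay between 0.207 and 0.315 CPM, depending on the tumor.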

Other observations

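Genes of whole chromosomes moved together in some tumors. On chromosome 12 the median deviation of log2 CPM from the gene's mean over the tumors was 0.31 in vehicle tumor 1, 0.33 in vehicle tumor 2 and 0.22 in liraglutide tumor 2, and between -0.24 and -0.03 in the other 7 tumors. The same 3 tumors had medians of 0.23, 0.19 and 0.21 on chromosome 19 and of -0.37, -0.25 and -0.21 on chromosome 14, where the others lay from -0.01 to 0.26. In vehicle tumor 5 the medians were 0.26 on chromosome 4, 0.21 on chromosome 8 and 0.17 on chromosome 10. These medians cover the 11761 genes with a mean of at least 5 CPM. Of the chromosome 12 genes among them 13.33% were past the threshold as lower in the rich tumors, against 6.573% of them all. The part of these patterns in the class differences was not tested beyond leaving those tumors out.

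Xist, which male cells do not normally express, was at 986 CPM in vehicle tumor 4 and 712 CPM in liraglutide tumor 5, and at most 2.94 CPM in the poor tumors. Ddx3y, a gene of the Y chromosome, was detected in every tumor, from 10.2 to 15.7 CPM (log2 difference 0.17, SE 0.13). So were the Y genes Kdm5d (log2 difference 0.52, SE 0.19), Eif2s3y (0.43, SE 0.16) and Uty (0.35, SE 0.23). Kdm5d ranged from 3.10 to 5.58 CPM in the poor and from 6.10 to 7.13 CPM in the rich tumors, without overlap. None of these Y genes passed the threshold. The source of the Xist reads was not tested.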
